A study of Mus musculus with 2 samples.

Results

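Clustered Gata1 peaks are peaks that lie close to another Gata1 peak on the same chromosome. They were chosen by their measured positions: a peak was a member if its midpoint lay at most 10 kb from the midpoint of another peak, and members linked in this way were chained into a run. Of 4130 peaks on the 19 autosomes and the X chromosome, 690 peaks (16.7%) were clustered and fell into 316 runs, and the other 3440 peaks stood alone. A further 5 deposited peaks lay on the Y chromosome or the mitochondrial genome and were not used. The peaks come from 1 Gata1 chromatin immunoprecipitation (ChIP-seq) library of mouse cells, prepared with a rabbit antibody to Gata1. The series also holds 1 input chromatin library, which was not analysed here. The cells were Runx1-ires-GFP+/Gata1::mCherry+ cells, sorted on both fluorescent reporters from embryoid bodies, the aggregates in which embryonic stem cells differentiate, at day 5 of differentiation towards blood, and the series calls them primitive erythroid. Material from several sorts was pooled for each library, so there was no replicate. The authors' list gives positions only, with every peak set to 400 bp and no height or p-value, so that the strength of a clustered peak and the sequencing depth are unknown and the cell type could not be checked by expression. Positions alone cannot tell separate binding sites from 1 broad region that was called more than once.

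Gata1 is the zinc finger transcription factor that red cells, megakaryocytes, mast cells and eosinophils need to mature. It reads the short DNA word GATA, usually followed by A or G, and works with partners that include Zfpm1 (Fog1), Tal1, Lmo2 and Klf1. Many erythroid genes carry several Gata1 sites spread over a promoter and its enhancers, as at the alpha-globin locus and at the genes for Gata1 and Gata2 themselves.

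Among the windows around listed transcription starts, 63 were overlapped by a clustered peak over at least 150 bp, or 55 when 1 window is kept per peak. The stretches printed here show what lies under such peaks at 11 starts, most of them of red cell or stress genes, and they were picked after the windows had been read. Each is the 61 bases centred on the peak's midpoint, read 5′ to 3′ on the strand of the gene from the RefSeq promoter table (GRCm38.p6, the same assembly as mm10). Capitals mark GATA, or TATC, which is GATA on the opposite strand.
Gadd45a, growth arrest gene, chr6:67037403-67037463, minus strand: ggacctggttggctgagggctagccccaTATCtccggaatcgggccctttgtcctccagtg
Hba-x, embryonic zeta-globin, chr11:32276393-32276453, plus strand: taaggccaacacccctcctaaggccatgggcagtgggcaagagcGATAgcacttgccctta
Tedc2, centriole protein, chr17:24220935-24220995, minus strand: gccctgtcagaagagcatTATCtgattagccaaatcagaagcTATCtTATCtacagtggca
Epor, erythropoietin receptor, chr9:21963590-21963650, minus strand: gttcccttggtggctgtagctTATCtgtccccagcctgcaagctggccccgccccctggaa
Icam4, red cell adhesion molecule, chr9:21029385-21029445, plus strand: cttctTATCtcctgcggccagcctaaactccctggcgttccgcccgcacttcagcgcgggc
Uros, haem synthesis enzyme, chr7:133702563-133702623, minus strand: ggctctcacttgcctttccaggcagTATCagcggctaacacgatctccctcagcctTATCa
Aldoa, glycolytic aldolase, chr7:126799274-126799334, minus strand: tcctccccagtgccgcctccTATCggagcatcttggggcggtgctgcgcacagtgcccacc
Ncoa4, receptor for ferritin breakdown, chr14:32165533-32165593, plus strand: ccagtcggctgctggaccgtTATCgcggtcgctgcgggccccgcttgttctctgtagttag
Cdan1, mutated in a human dyserythropoietic anaemia, chr2:120731677-120731737, minus strand: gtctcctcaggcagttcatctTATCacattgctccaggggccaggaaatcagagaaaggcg
Hspa4, heat shock chaperone, chr11:53300467-53300527, minus strand: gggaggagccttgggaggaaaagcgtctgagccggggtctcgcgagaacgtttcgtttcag
Trib3, stress-induced pseudokinase, chr2:152344038-152344098, minus strand: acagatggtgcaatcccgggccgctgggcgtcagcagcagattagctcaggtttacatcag

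Tedc2 has 3 GATA words within its 61 bases and Uros has 2, whereas the Hspa4 and Trib3 stretches have none. Read on either strand, the longer word AGATAA is present in the Epor, Icam4 and Tedc2 stretches. In the Gadd45a stretch the word sits on the midpoint of the peak itself, 26 bp before the transcription start.

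No difference in GATA words was detected between clustered and lone peaks at starts. GATA was searched on both strands in windows from 250 bases before to 50 after a listed start, taking 1 window per run or per lone peak. It was found in 42 of 52 windows of runs (80.8%, 95% Wilson interval 68.1 to 89.2) and in 221 of 277 windows of lone peaks (79.8%, 74.7 to 84.1), against 57.7% of all 32619 windows in the table. The odds ratio of runs to lone peaks was 1.06 (Fisher's exact test, two-sided, adjusted p = 1 over 7 tests). The longer word AGATAA, which contains GATA, was in 15 windows of runs (28.8%) and in 87 windows of lone peaks (31.4%), against 11.2% of all windows. CACCC, the word read by Klf1 and related factors, was in 34 windows of runs (65.4%) and in 181 windows of lone peaks (65.3%), against 57.7% of all windows. TGACTCA, the word read by Nfe2 and AP-1 factors, was found in 1 window of a run and 10 windows of lone peaks. GGAA, the core read by Ets factors, was in 50 windows of runs and 267 windows of lone peaks, and 96.0% of all windows hold it. None of the 7 tests had an adjusted p under 1, and the intervals leave room for differences of many percentage points. These matches describe letters in a window and are not evidence of a bound site.

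Within the windows the GATA words lay close to the peak midpoints in both groups. In the first 20 bp on either side of the midpoint there were 16.3 GATA words per 1000 positions under clustered peaks and 16.8 under lone peaks, and between 20 and 40 bp there were 5.71 and 6.62. The fall was not steady under clustered peaks, with 1.60 between 40 and 60 bp and 8.06 between 60 and 80 bp. Lone peaks had 5.11 and 4.39 there. The nearest GATA lay a median of 11.5 bp from the midpoint in the 41 of 55 clustered windows that held one within 200 bp, and 14.5 bp away in 212 of 277 lone windows. The central 61 bases held GATA in 31 of 43 runs (72.1%, 57.3 to 83.3) and in 127 of 193 lone peaks (65.8%, 58.9 to 72.1), with an odds ratio of 1.34 (Fisher's exact test, two-sided, p = 0.478, adjusted p = 1). A stretch of the same 61-base length in the middle of the promoter window held GATA in 17.8% of all windows in the table. CACCC was not gathered in the same way, with 4.20 words per 1000 positions within 20 bp under clustered peaks and 3.14 under lone peaks.

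**Figure D1:**
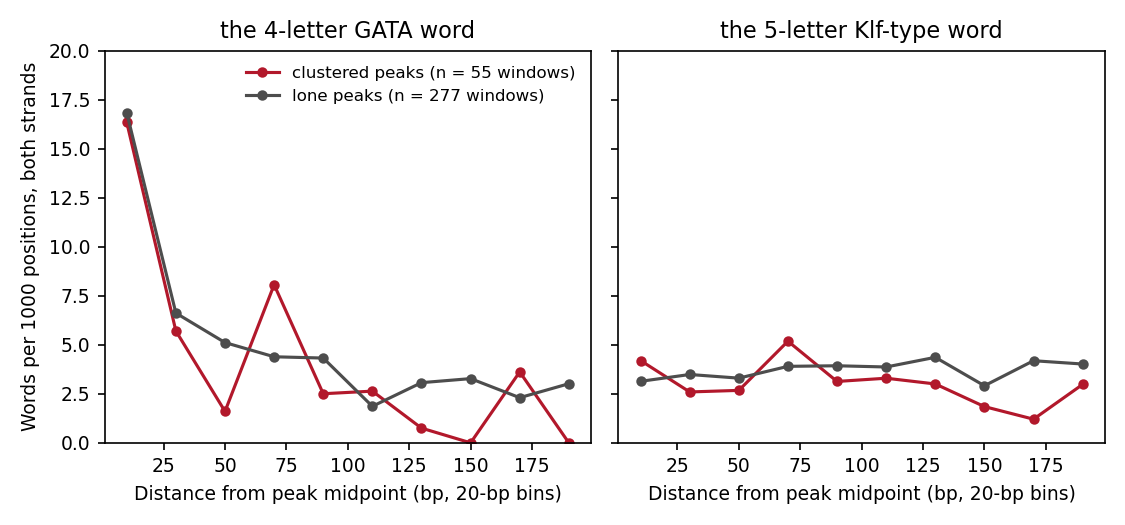
Words per 1000 searched positions (vertical axis) by distance from the peak midpoint in bp (horizontal axis, bins of 20 bp), for GATA and CACCC in promoter windows, with clustered peaks in red and lone peaks in grey. GATA stands highest in the bin nearest the midpoint in both groups, at 16.3 and 16.8 words per 1000 positions, and CACCC stays low at 4.20 and 3.14.

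Most runs were pairs. There were 268 runs of 2 peaks, 40 of 3, 6 of 4 and 2 of 5, and the 48 runs of at least 3 peaks held 154 of the 690 clustered peaks. The distances described here chose the members, so they carry no test. The 374 neighbouring pairs within runs were 493 to 9982 bp apart, with a median of 3.96 kb and an interquartile range of 1.59 to 6.75 kb, whereas all 4110 neighbouring pairs on these chromosomes had a median of 171 kb. Neighbours were most often 1 to 2 kb apart, with 72 pairs in that kilobase, 40 pairs under 1 kb and 26 pairs between 9 and 10 kb. A further 194 pairs lay between 10 and 20 kb and were not members. Just inside the limit were 2 peaks in Hk1, 9.98 kb apart, 2 in Cdkl1, 9.95 kb apart, and 2 near Mroh7, 9.84 kb apart. Just outside it were neighbours near Lrrc8c, 10.07 kb apart, near Tbc1d2b, 10.11 kb apart, and near B4galt3, 10.13 kb apart.

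**Figure D2:**
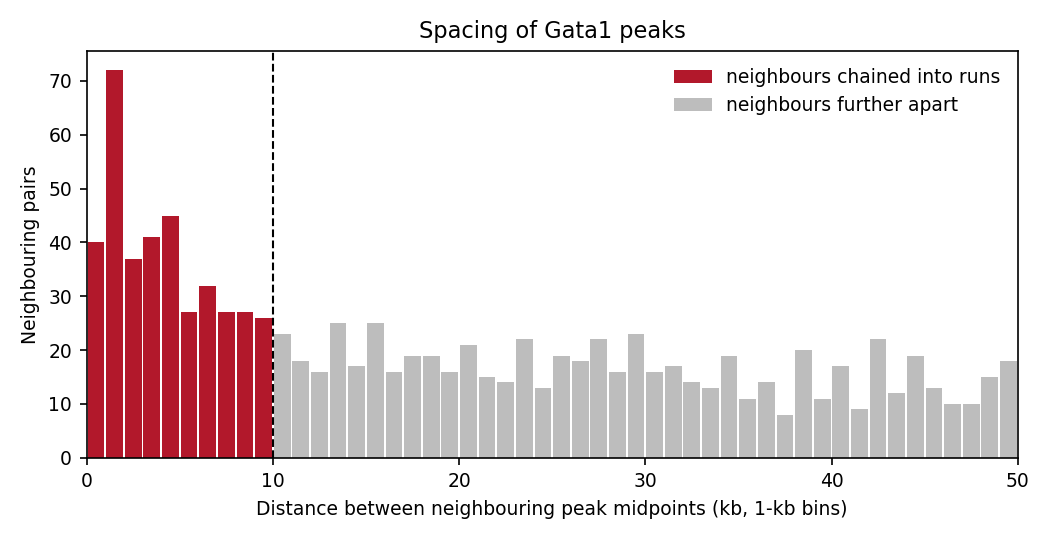
Number of neighbouring peak pairs (vertical axis) by the distance between their midpoints in kb (horizontal axis, bins of 1 kb), with pairs inside the 10 kb limit in red and those outside it in grey. The highest bin is 1 to 2 kb with 72 pairs, and the bins from 9 kb outward hold 26 pairs or fewer.

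The span from the first to the last midpoint had a median of 3.96 kb for pairs (0.493 to 9.84 kb), 8.73 kb for runs of 3 (1.49 to 15.8 kb) and 13.3 kb for runs of 4 or 5 (2.68 to 21.2 kb). Among the shortest pairs were those in Chmp6, 0.493 kb, and near Ccdc9, 0.508 kb. At such distances the 400 bp intervals almost touch. The longest spans were those at Btg2 and Hk1 and a run of 3 peaks between Tacc3 and Fgfr3, 15.8 kb, at chr5:33681767-33697929, whose peaks all lay outside genes. The clustered share of peaks ranged from 10.5% on chromosome 3 (21 of 200 peaks) to 23.3% on chromosome 16 (28 of 120 peaks) among the autosomes. On the X it was 4 of 42 peaks (9.52%, 95% Wilson interval 3.77 to 22.1), and these 4 formed the pair at Gata1 and the pair at Kcnd1 and Otud5.

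Btg2, an antiproliferative gene that slows the cell cycle, carried the longest run, with 5 peaks at chr1:134071530-134093125. Relative to the Btg2 start they lay at 7.43, 5.90, 0.55, -7.89 and -13.8 kb, so that 1 peak marked the first part of the gene, 2 lay past its far end and 2 lay upstream. The nearest neighbours in it were 1.53 kb apart and the most distant 8.44 kb.

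Gadd45a, a growth arrest and stress gene, carried the most compact of the large runs, with 4 peaks within 2.68 kb at chr6:67034557-67037633. They lay at 2.65, 1.31, 0.79 and -0.03 kb from its start, and all 4 lay within 1 kb of a gene end. Gadd45a itself is 2.31 kb long. The neighbours were 1.34, 0.527 and 0.811 kb apart.

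Hk1 encodes a hexokinase, the first enzyme of glycolysis, and has an erythroid promoter of its own. Its 5 peaks at chr10:62327517-62345557 lay inside the gene, at 12.7, 11.2, 7.63, -2.35 and -4.94 kb from the nearest listed Hk1 start. They fell into 3 peaks and 2 peaks that were held together by the 9.98 kb step just inside the limit.

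Zfpm1 encodes Fog1, the zinc finger partner through which Gata1 acts at many genes, and was the only gene with 2 runs of 4 peaks. The first run, chr8:122282643-122293910, lay at 0.70, 2.68, 4.98 and 11.6 kb from the Zfpm1 start. The second, chr8:122309349-122323100, began 15.8 kb further on and lay at 27.4, 31.4, 39.7 and 40.8 kb. All 8 peaks were within the gene.

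Gata2, which precedes Gata1 in blood development and is replaced by it at shared sites, carried 4 peaks at chr6:88189641-88203383. They lay at -4.05, -3.15 and 0.18 kb from its start, and the last at 4.52 kb from another listed start inside the gene. Glrx5, a mitochondrial glutaredoxin needed for iron-sulphur clusters and haem synthesis, carried 4 peaks at chr12:105025616-105039381. They lay at -6.80, -4.80, 1.95 and 6.56 kb from its start, on both sides of it. The eighth run of at least 4 peaks, chr11:3100325-3104764, covered no gene and lay 27.1 kb from Sfi1, a centrosome gene, with its 4 peaks within 4.04 kb. Whether reads map there uniquely, or come from repeated sequence, was not tested.

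**Figure D3:**
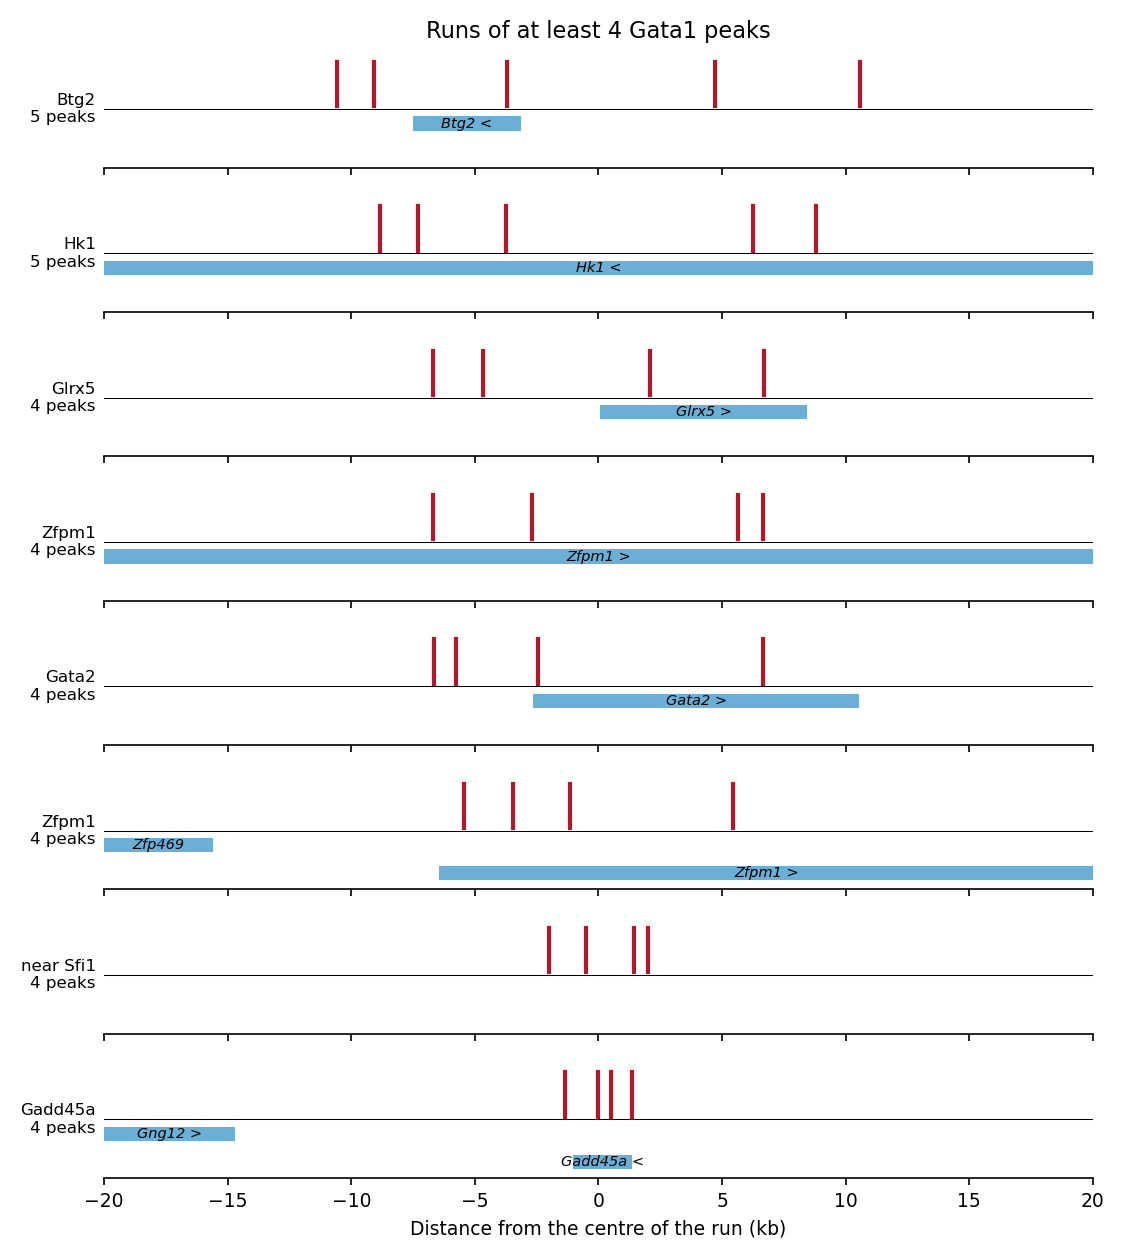
Positions of the peaks (marks) in the 8 runs of at least 4 peaks, 1 row a run, in kb from the centre of the run (horizontal axis), with coding genes as blue bars and their direction as an arrowhead. The Btg2 run is the widest at 21.2 kb and the Gadd45a run the narrowest at 2.68 kb.

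Genes of haem synthesis and iron handling, of the red cell membrane, of blood transcription control and of the globin loci had 17.6 to 26.9% of their members covered by runs, beside 1.16% of all coding genes. A gene counted as covered where its body overlapped the span of a run, which held for 250 of 21519 coding genes, 1.16%. Among genes with any peak within 10 kb, 339 of 3596, 9.43%, had at least 2 peaks of 1 run there. The lists were drawn up with results of these data known and include genes already seen to carry several peaks, among them Btg2, Gadd45a, Frs2, Plcb3, Gse1, Hk1 and Nprl3. Their counts are therefore a description with no test. The median length was 33.7 kb for covered genes and 17.4 kb for all coding genes. Among genes with a peak within 10 kb, it was 26.9 kb for those with a run there and 28.6 kb for those without. Whether gene length bears on coverage by a run was not tested.

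In haem synthesis and iron, 7 of 26 genes were covered (26.9%, 95% Wilson interval 13.7 to 46.1), and 8 of the 17 with a peak within 10 kb had a run there (47.1%). The median gene length was 17.0 kb for this list, 31.7 kb for the membrane list and 31.9 kb for the transcription factor list, so that the membrane and transcription factor lists are nearer in length to the covered genes. Fech, the enzyme that inserts iron into haem, had 3 peaks at chr18:64485649-64491667. Of these, 1 was inside the gene, 1 within 1 kb of its higher-coordinate end and 1 beyond that end. No start is listed on chromosome 18, so whether that end is the Fech start was not read. Ppox, the enzyme of the step before, had 2 peaks 0.510 kb apart, at 0.68 and 0.17 kb from its start. Uros, an earlier enzyme of the pathway, had peaks at 4.30 and -0.09 kb, the second of them over the stretch printed above. Fam210b, a mitochondrial protein needed for iron import into haem, had peaks at 1.91 and 2.95 kb. Tmem14c, which carries a haem precursor into mitochondria, had peaks at 1.78 and 4.46 kb. Snx3, which recycles the transferrin receptor, had peaks at 32.3 and 35.8 kb, at the far end of the gene. Abcb10, a mitochondrial transporter of erythroid cells, was not covered, but a run of 3 peaks lay upstream, at -5.72, -7.49 and -11.5 kb from its start, and 1.53 kb from Taf5l. Ppox and Uros thus had a peak within 1 kb of a start, whereas at Fam210b, Tmem14c, Snx3 and Abcb10 every clustered peak stood further away. Fech could not be placed in this contrast, since its start is not listed.

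In the red cell membrane and skeleton list, 5 of 26 genes were covered (19.2%, 8.51 to 37.9), and 6 of the 19 with a peak had a run within 10 kb (31.6%). Gypc, which anchors the skeleton, had 2 peaks inside the gene at chr18:32538346-32542775. Sptb, the beta chain of spectrin, had 2 peaks 39.7 and 36.6 kb past its nearest listed start. Icam4 had a peak at -0.02 kb from its start and another at -1.18 kb from the start of Icam5. Tspan33, a tetraspanin needed for red cell formation, had peaks at 3.54 and 7.06 kb from its start. Rhag, the Rh-associated glycoprotein, was not covered, and its 2 peaks lay upstream, at -4.28 and -3.76 kb from the start and 0.523 kb apart.

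Among blood transcription factors, 6 of 34 genes were covered (17.6%, 8.35 to 33.5), and 7 of the 27 with a peak had a run within 10 kb (25.9%). Besides Gata2 and Zfpm1, Gata1 itself had 2 peaks at chrX:7968243-7971702, at -0.53 and -3.59 kb from its nearest listed start. Lyl1, a relative of Tal1, had peaks at 0.21 and 2.17 kb from its start. Nfe2, the erythroid and megakaryocytic partner in the NF-E2 complex, had 1 peak inside the gene and 1 at a gene end at chr15:103251602-103258762. Fli1, an Ets factor of megakaryocytes and endothelium, had 2 peaks inside the gene at chr9:32514618-32519985, and another pair began 35.7 kb further on at chr9:32555284-32556608, outside the gene. Gfi1b, a repressor that red cells and platelets need, was not covered, but 3 peaks at chr2:28597999-28604896 lay 4.55 kb beyond the gene's nearer end.

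The globin list, which includes the enhancer host Nprl3, had 2 of 11 covered (18.2%, 5.14 to 47.7), Nprl3 and Hba-x. Nprl3 houses the main enhancers of the alpha-globin genes in its introns and was 1 of 5 coding genes with 2 runs, the others being Adk, Plcb3, Zfp608 and Zfpm1. The first run had 2 peaks inside Nprl3, at chr11:32245636-32251197. The second, chr11:32265119-32276623, had 3 peaks, at 2.39 and -1.42 kb from the nearest Nprl3 start and at -0.18 kb from the Hba-x start. The runs were 14.3 kb apart, so that 5 peaks stood within Nprl3 and between it and the embryonic globin.

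Of the signalling genes, 3 of 26 were covered (11.5%, 4.00 to 29.0). Epor had 2 peaks at 0.97 and -0.04 kb from its start. Frs2, an adaptor of growth factor receptors, had 3 peaks inside the gene at chr10:117092870-117106553. Plcb3, a phospholipase of G protein signalling, had a pair whose span ran from the gene to Fkbp2. A run of 3 peaks within 1.49 kb lay between Plcb3 and Bad, a cell death gene, at chr19:6951829-6953715. Only the edges of its outer peaks overlapped these genes, and no midpoint lay inside either. This run counts as a second run of Plcb3 through that edge alone. Cell cycle and survival genes had 2 of 26 covered (7.69%), Btg2 and Gadd45a. Glycolysis had 2 of 20 genes covered, Hk1 and Aldoa, with the Aldoa peaks at 0.47 and -0.05 kb from its start. Megakaryocyte genes had 1 of 24 covered, Itga2b, the platelet integrin subunit, with peaks at 6.30 and -0.33 kb. Corepressor and chromatin genes had 1 of 24, Gse1, a subunit associated with histone demethylase complexes, in which 8 peaks lay in or within 10 kb of the gene but only 2 were close enough to each other to be clustered.

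In the lists of other cell types and processes at most 1 gene each was covered. Cardiac and early mesoderm genes had 1 of 27 covered, Smad1, a transducer of Bmp signals, with peaks at 23.5 and 18.8 kb from its start. Of the 6 genes of that list with a peak, 3 had a run within 10 kb (50%), namely Smad1, Gata6 and Tbx6. By that measure the share was the highest of the 15 lists, above the 47.1% of haem synthesis and iron, though it rests on 6 genes. No covered gene was found in the autophagy list (0 of 24, which allows a share of up to 12.5%), the myeloid and mast cell list (0 of 27, up to 11.1%), the endothelial list (0 of 24, up to 12.5%), the pluripotency list (0 of 20, up to 15%) or the housekeeping list (0 of 25, up to 12%). These limits lie above the 1.16% of all coding genes, so that the counts of 0 do not set these lists apart. Of these, the housekeeping list had 8 genes with a peak within 10 kb and the endothelial list 6, none of them with a run.

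**Figure D4:**
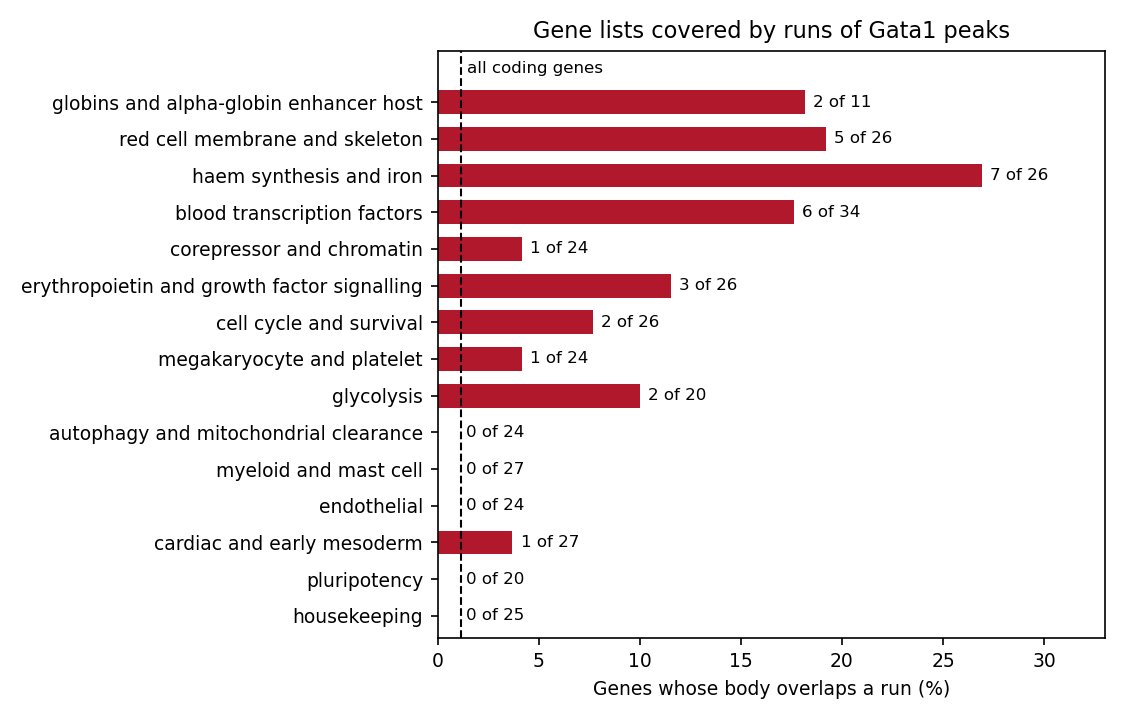
Share of each list's genes covered by a run, in percent (horizontal axis), for the 15 lists, with the count of genes beside each bar and a dashed line at the 1.16% of all coding genes. Haem synthesis and iron has the longest bar at 26.9%, and 5 lists have none covered.

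Some runs lay near miRNA genes: 18 of 1005 hairpins in the RefSeq miRNA table lay within 10 kb of a clustered peak. Hairpins of 1 locus are counted singly, as with Mir144, Mir451a and Mir451b. For coding genes, 339 of 21519 had at least 2 peaks of 1 run within 10 kb, which is a stricter measure. The shares were not compared by a test, so the count does not show that runs favour miRNA genes. The mature sequences are printed for 5 miRNAs of 3 loci, since they include the erythroid miRNAs miR-144 and miR-451a and a pair with a shared seed, with the seed, bases 2 to 8, in capitals.
miR-144-3p: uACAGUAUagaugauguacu
miR-451a: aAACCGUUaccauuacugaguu
miR-142a-3p: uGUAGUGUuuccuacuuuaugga
miR-132-3p: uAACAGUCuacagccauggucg
miR-212-3p: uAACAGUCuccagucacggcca

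Mir144 and Mir451a form the erythroid miRNA cluster on chromosome 11, and their run of 2 peaks at chr11:78065910-78070038 lay upstream of both, at -6.90 and -3.17 kb from the start of the Mir144 hairpin and at -7.06 and -3.33 kb from that of Mir451a. It covered no coding gene. Mir142, a blood cell miRNA, lay between the 2 peaks of a run at chr11:87751620-87760061 over Tspoap1, at -5.05 and 3.00 kb from the start of the hairpin. Mir132 and Mir212, whose 3p products share the seed AACAGUC, lay in a run at chr11:75169000-75173900 that also covered Hic1. Its second peak had its midpoint 0.018 kb from the start of the Mir132 hairpin and 0.31 kb from that of Mir212, and its first peak lay at -4.48 kb from that of Mir132.

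No difference in location relative to genes was detected between runs and lone peaks. Peaks were sorted into gene ends (midpoint no more than 1 kb from an end of some gene), gene interiors and positions outside genes, and the lowest-coordinate peak stood for each run. Gene ends held 74 of 316 runs (23.4%, 95% Wilson interval 19.1 to 28.4) and 888 of 3440 lone peaks (25.8%, 24.4 to 27.3), an odds ratio of 0.879. Gene interiors held 170 runs (53.8%, 48.3 to 59.2) and 1752 lone peaks (50.9%, 49.3 to 52.6), an odds ratio of 1.12. Outside genes were 72 runs (22.8%, 18.5 to 27.7) and 800 lone peaks (23.3%, 21.9 to 24.7), an odds ratio of 0.974. The adjusted p was 0.572 for ends and interiors and 0.889 for outside (Fisher's exact test, two-sided, adjusted over the 3 classes). The differences, runs minus lone peaks, were -2.40 points (95% interval -6.98 to 2.78) at ends, 2.87 points (-2.89 to 8.54) inside and -0.47 points (-4.99 to 4.65) outside. The test treats runs and lone peaks as independent, and the intervals cover counting only. The direction at gene ends depended on which peak stood for the run: with the highest-coordinate peak the odds ratio was 1.20.

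Coding genes within 100 kb numbered a median of 4 around the runs (interquartile range 2 to 6) and 3 around lone peaks (2 to 6). Peaks inside coding genes lay in genes with a median length of 50.7 kb for runs (n = 187) and 64.2 kb for lone peaks (n = 2039).

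**Figure D5:**
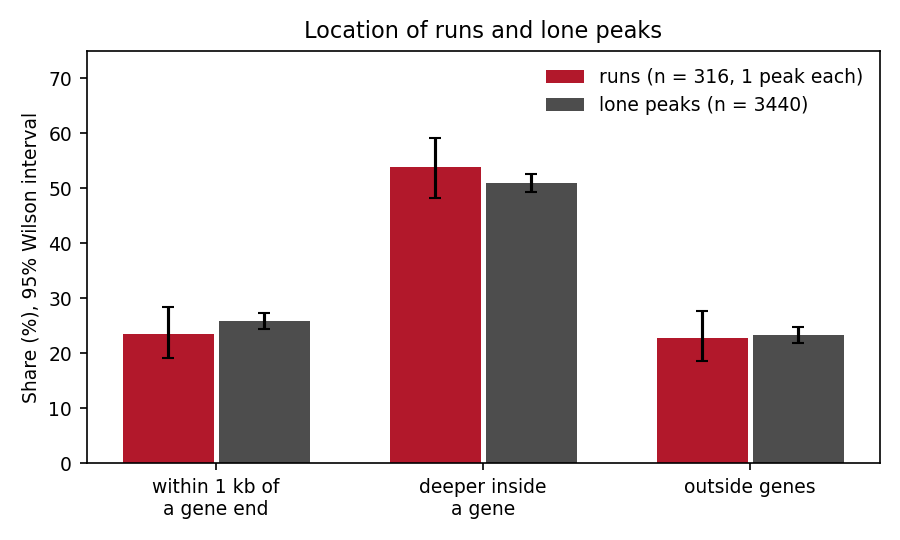
Share in percent (vertical axis) of runs and of lone peaks at gene ends, inside genes and outside genes, with 95% Wilson intervals as error bars. The intervals of runs overlap those of lone peaks in each of the 3 classes, at 23.4% and 25.8% at gene ends.

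Single runs often joined different kinds of position. Of the 316 runs, 117 lay only inside genes (37.0%), 51 only outside (16.1%), 38 only at gene ends (12.0%), and 110 (34.8%) combined classes, 69 of them a gene end with an interior. At least 1 peak at a gene end was present in 134 runs (42.4%). Neighbours that were both at gene ends were the closest, with a median of 1.34 kb over 52 pairs, whereas those that were both inside genes had a median of 3.64 kb over 139 pairs and a gene end with an interior 4.70 kb over 77 pairs. Peaks at the same gene end lie close together by definition, since that class reaches only 1 kb from an end. These distances also chose the members, so the order of the medians carries no test.

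A nearest listed coding start could be found for 305 runs, since the table of starts lists none on chromosome 18. Of the 21519 coding genes, 17273 have a listed start. Where a gene's own start is missing, the distance runs to another gene. The first peak of the pair in Pkhd1l1, for example, was measured 4324 kb from a start of 9330182O14Rik. The medians, shares and counts that follow carry this gap. The first peak of the run lay a median of 11.9 kb from the nearest listed coding start, and lone peaks lay a median of 19.5 kb away (n = 3324), yet the share within 1 kb was 17.7% for both, 54 runs and 589 lone peaks. In 217 of the 305 runs no peak lay within 1 kb of a start in the table, 63 had exactly 1 such peak and 25 had more. The 217 include runs such as that of Hes1, whose own start is not in the table used. Among the 54 pairs with 1 peak at a start, the partner lay inside the same gene in 28 (51.9%, 95% Wilson interval 38.9 to 64.6), with a median position of 3.58 kb from the start used. It lay upstream of the gene in 22 (40.7%, 28.7 to 54.0), with a median position of -5.25 kb, and beyond the gene in 4 (7.41%). Of the 28, 2 partners, in Gm826 and Gata1, lay before the start used, which makes 24 partners before it in all. Partner peaks thus lay on either side of the start used. The upstream and intragenic shares are parts of the same 54 pairs and were not compared by a test. Only 1 gene was used per start peak, so a partner upstream of it can lie inside a neighbouring gene. This held at Plekha4, Mob1a and Chek2, whose partners lay inside Ppp1r15a, Mthfd2 and Hscb. The split between upstream and intragenic partners depends on that choice.

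Some other runs of 3 peaks are given as examples, chosen after their positions were seen. Usp10, a deubiquitinase, had peaks at -6.16, 0.21 and 7.91 kb from its start. Rab5a, a regulator of early endosomes, had its 3 peaks within 1.55 kb, at -0.87, -0.35 and 0.68 kb. Mgarp, a mitochondrial protein, had peaks at 7.49, 0.54 and -0.26 kb. Kcnn4, the calcium-activated potassium channel of the red cell, had peaks at 1.48, 6.95 and 14.0 kb and none at its start. Rbm38, an RNA-binding protein that acts in erythroid splicing, had peaks at 6.12, 13.3 and 16.5 kb, the first inside the gene and the others beyond it. Hes1, a target of Notch signalling, had 3 peaks at chr16:30065165-30069985, each within 1 kb of a gene end. Samd14, a gene that Gata factors regulate in mouse blood progenitors, shared 3 peaks at chr11:94997585-95012529 with Ppp1r9b.

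Coding genes were absent from the span of 87 runs, of which 54 covered no gene of any kind and 33 only non-coding genes. Of the remaining runs, 206 covered 1 coding gene and 23 covered more, and 131 runs (41.5%) had every peak inside the same coding gene. The 87 runs without a coding gene lay a median of 17.0 kb from the nearest one, with 34 within 10 kb, 33 between 10 and 50 kb and 20 further away. A pair inside Pvt1, the non-coding RNA gene beside Myc, lay 231 kb from Myc at chr15:62221091-62223505. A run of 3 lay 122 kb from Cited2, a coactivator-binding regulator of blood stem cells, at chr10:17590186-17601164. Another run of 3 lay 43.0 kb from Pim1, a kinase gene, at chr17:29438428-29447745. The most distant run, a pair at chr9:3022000-3024871, lay 310.4 kb from Alkbh8, near the start of the assembled chromosome, and the pair in Pvt1 was the next most distant. A pair at chr17:39844286-39848798 covered Rn18s-rs5, named as a ribosomal RNA related sequence, and AY036118. At the chromosome 9 pair and at this one, too, unique mapping of the reads was not tested, so whether they mark Gata1 binding at these positions is uncertain.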

How the data were processed

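The authors deposited 1 list of peak positions for the Gata1 ChIP library, with chromosome, start and end but no score, in mm10 coordinates. Bowtie2 2.0.6 and MACS2 2.0.10 are named in the submitters' processing notes; settings, threshold and how the input entered are unknown, and so is the read depth. Positions are printed 1-based. Members, gene lists and tests were chosen with earlier results of these data known. Peak midpoints were chained at 10 kb, and genes came from RefSeq (GRCm38.p6), leaving out 340 entries below 3 Mb as scaffold coordinates. Location shares were compared by Fisher's exact test with Benjamini-Hochberg adjustment. The planned motif test on whole peaks needs a genome and was replaced by promoter windows; the central 61-base test was chosen after the data were seen. The genes named were those of runs of at least 4 peaks, up to 4 covered genes a list, the longest and shortest runs, and the pairs around the limit. Further list members and other genes were named after their values were seen. Some of the genes so chosen are not reported here. Alternatives were other distances, other representative peaks and other gene-end zones. Code was tested on simulated data. Python 3.11.15, numpy 2.4.6, pandas 2.3.3, scipy 1.17.1 and matplotlib 3.10.9 were used. With 1 library nothing here measures variation between cultures.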

Additional observations from a re-analysis of the deposited data

How the results depend on the processing

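The number of clustered peaks, 690, fell to 452 with a distance of 5 kb, and the coding genes covered were 164 at 5 kb and 426 at 20 kb, against 250. The other definitions of a run (20 kb, interval ends in place of midpoints, peaks merged within 1 kb) kept the counts of peaks and runs within 1.5 times. The odds ratio at gene ends, 0.879, turned to 1.20 with the highest-coordinate peak of each run, 1.08 with every peak and 1.01 at 5 kb. That inside genes, 1.12, turned to 0.916 with the highest-coordinate peak and 0.980 with every peak. That outside genes, 0.974, turned to 1.02 with coding gene ends only and 1.03 at 20 kb. No location test passed an adjusted p of 0.05 under any alternative run; the lowest was 0.0925, outside genes at 5 kb. GATA with A or T before and A or G after, a form chosen after the data were seen, turned the odds ratio of runs to lone peaks to 0.813. The causes were not tested. Motif searches in whole-peak sequence (central 200 bp, lowest-coordinate peak) were not run. Without peak heights or depth, no result could be weighted by the strength of a peak, and a gene without a peak may be bound below the authors' threshold.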
